A study of Caenorhabditis elegans with 12 samples.

Results

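The histone genes of Caenorhabditis elegans were taken from the deposited expression table by their symbols, as the genes whose symbol is his, hil or htz followed by a number. They were 81 of the 23515 genes in the table, and all 81 were annotated as protein coding. They comprised 65 copies of the core histones, of which 17 encode H2A, 17 H2B, 15 H3 and 16 H4. The variants were 11 genes, namely his-71 and his-72 for H3.3, htz-1 for H2A.Z and the linker histone genes hil-1 to hil-8. The other 5 were the linker histone gene his-24 and the H3-like genes his-69, his-70, his-73 and his-74.

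Whole larvae of the third larval stage, raised from embryos at 15 °C, were frozen, and poly(A) RNA was sequenced in 12 libraries. The groups, of 4 libraries each, were the N2 wild type, the strain RW364 with genotype unc-120(st364) and the strain XA8001 with genotype fhod-1(tm2363). unc-120 encodes the serum response factor homologue of muscle, and fhod-1 encodes a formin of body-wall muscle. One label (the source name) attaches the names RW364 and XA8001 the other way round, and the genotype, title and description labels were followed. The strains are called the unc-120 mutant and the fhod-1 mutant below. Each mutant was 1 strain, and the labels do not say whether the 4 libraries of a group came from separate cultures, so p-values measure the spread between these libraries, which may be technical.

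Core histones form the nucleosome, the spool around which DNA is wound, and linker histones bind the DNA that enters and leaves it. In animals, genes for replication-dependent core histones are present in many near-identical copies, are mostly without introns, and are transcribed in S phase into mRNAs that end in a stem-loop rather than in a poly(A) tail. Variants such as H3.3 and H2A.Z are made outside S phase as well, from intron-containing genes whose mRNAs are polyadenylated. A library made from poly(A) RNA therefore sees the replication-dependent copies only through transcripts that carry or contain enough A for capture. Reads that match several copies equally well cannot be assigned to 1 of them, and how the authors' counting treated such reads is not given in the sources used here. The value of a single core copy is uncertain for that reason, and so is its level beside genes without copies. Sums over copies are less exposed to how reads were split between them, but reads dropped as ambiguous would be missing from the sums too.

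The deposited values are divided by gene length and proportional to TPM, a share of the library's transcripts, and every library summed to 638200, so levels can be compared between genes. All levels below are in this unit. The read depth is not given by the files, so precision rests on the 4 libraries of a group. The gene unc-120 stood at 9.63 to 15.9 in the wild type and at 25.6 to 43.1 in the unc-120 mutant, and fhod-1 at 4.00 to 6.24 in the wild type and 3.21 to 6.16 in the fhod-1 mutant. A level over a whole gene does not show which part of it was sequenced, so neither value checks the allele. Replicate 2 of the unc-120 mutant lay farthest out on the first principal component, which held 38.6% of the variance. In that library the log2 level decreased most steeply with gene length, with a slope of -0.26 per doubling of exonic length against -0.13 to 0.15 in the other 11.

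Levels differed with the structure of the gene. An annotated 3' untranslated region (UTR) was present in Ensembl WBcel235 release 115 for 17 of the 81 genes, which were his-24, his-35, his-37, his-41, his-57, his-71, his-72, his-74, htz-1 and the 8 hil genes. Their mean level over the 12 libraries ranged from 0.0365 for hil-8 to 257 for his-37, with a median of 32.5, and 13 of the 17 reached 10. The 64 genes without one, all with a single exon, ranged from 0.0422 for his-70 to 14.6 for his-3, with a median of 2.56. Among these, his-3 and his-7, both H2A genes of chromosome V, were the 2 that reached 10. These are annotations, and the 3' ends of the transcripts were not measured.

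**Figure D1:**
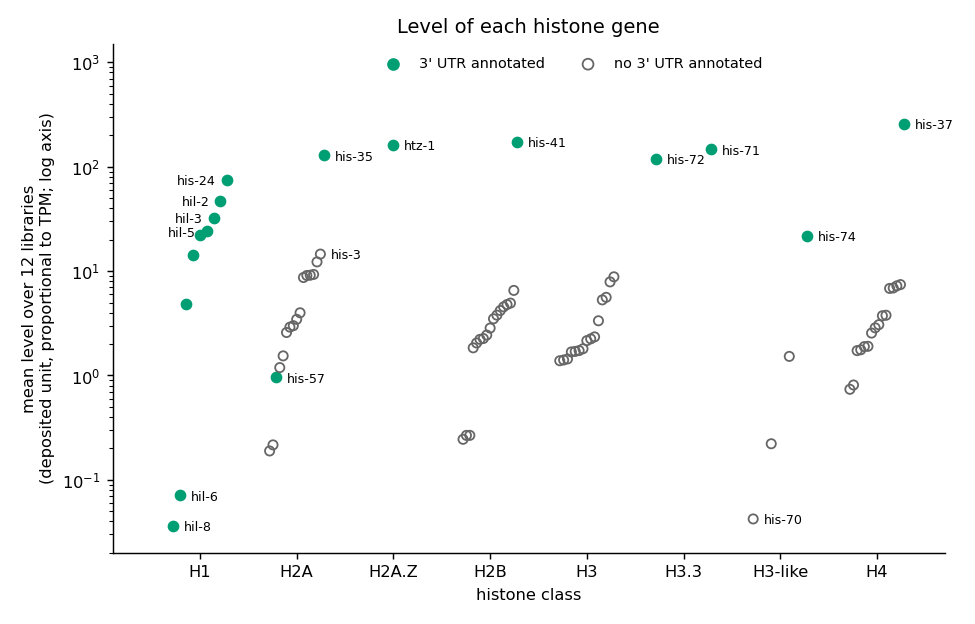
Mean level of each of the 81 histone genes over the 12 libraries (deposited unit, proportional to TPM, log axis) by histone class, with genes that have an annotated 3' UTR as filled points and the others as open points. In H2A, H2B and H4 a single filled point (his-35, his-41 and his-37) stands above 100 while every open point is below 20.

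Of the 65 core copies, 3 were spliced in every annotated transcript, 1 each for H2A, H2B and H4. They lie side by side on chromosome V at chrV:9544611-9547607 (WBcel235), within 3.00 kb, as his-35 on the minus strand and his-41 and his-37 on the plus strand. Their mean levels were 129 for his-35, 173 for his-41 and 257 for his-37, against 0.189 (his-33) to 14.6 (his-3) for the other 62 core copies. his-57, an H2A gene with an annotated 3' UTR and some spliced transcripts, was low at 0.965. By class, the mean levels of the other copies, his-57 included, ran from 0.189 to 14.6 for H2A (median 3.22), 0.245 to 6.53 for H2B (median 2.64), 1.38 to 8.81 for H3 (median 2.16) and 0.737 to 7.43 for H4 (median 2.86). Together the 3 spliced genes made up 64.1% to 76.3% of the summed level of all 65 core copies in the 12 libraries. H3 had no such copy among the core genes, and there the H3.3 genes his-71 and his-72 held 75.4% to 89.4% of the sum of core H3 and H3.3. In poly(A) libraries these are not shares of the histone mRNA of the worm, and reads dropped as ambiguous would be missing from them too. All 81 genes together held 0.196% to 0.256% of a library's total.

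For the tests, 71 of the 81 genes reached a value of 1 in 4 or more libraries, as did 12831 genes of the table. The 10 left out were hil-6, hil-8, his-1, his-29, his-30, his-33, his-34, his-39, his-69 and his-70. Each comparison used limma on log2(value + 1) with 1 mean per group over all 12 libraries, and a gene was called at an adjusted p (Benjamini-Hochberg over all 12831 genes) under 0.05. Fold changes are on that log2(value + 1) scale, which understates the change of low genes. Beside it stands a two-sided exact permutation test of 4 against 4 libraries, whose smallest possible p is 0.0286. That value was reached by each gene below whose groups did not overlap.

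Between the unc-120 mutant and the wild type, no histone gene was called, 0 of 71, where 1.2% of all tested genes were, 0.522% higher and 0.678% lower. At an unadjusted limma p under 0.05 there were 8 of 71 histone genes against 8.2% of all tested genes. In his-71, his-72 and his-41 all 4 mutant libraries were above all 4 of the wild type, which held for 2.17% of all tested genes. The reverse held for 0 of 71, against 2.04%.

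Between the fhod-1 mutant and the wild type, 3 of 71 were called, where 5.23% of all tested genes were. The histone genes called, all higher in the mutant, were his-72, hil-1 and his-71, against 3.86% of all tested genes called higher and 1.37% called lower. All 4 mutant libraries were above all 4 of the wild type in 6 genes (his-71, his-72, htz-1, his-35, his-41 and hil-1), against 10.8% of all tested genes. They were below in 6 others (his-10, his-14, his-25, his-26, his-61 and his-64), against 4.7%. The first 6 all have an annotated 3' UTR, as 15 of the 71 tested histone genes do. The second 6 are all single-exon core copies, and 56 of the 71 have a single exon and no annotated 3' UTR. Most tested histone genes are thus of the second kind, and the split by structure was not tested. Histone genes with a 3' UTR were also higher in level (median 32.5 against 2.56 without one). The copies share reads, so they are not independent of each other. With the dependence of the values on gene length removed per library by a loess curve, 3 histone genes were called higher and 8 lower, where 17.5% of all tested genes were called.

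Between the unc-120 mutant and the fhod-1 mutant, 2 of 71 were called, where 1.97% of all tested genes were. hil-7 was lower in the unc-120 mutant, as 1.51% of all tested genes were, and his-56 was higher, as 0.46% were. All 4 libraries of the unc-120 mutant were below all 4 of the fhod-1 mutant in hil-7 and his-71, against 6.07% of all tested genes, and above them in his-56, his-61 and his-64, against 2.17%. The 2 comparisons with the wild type share its 4 libraries, so a high or low wild-type library enters both, and each comparison's values are given side by side below.

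**Figure D2:**
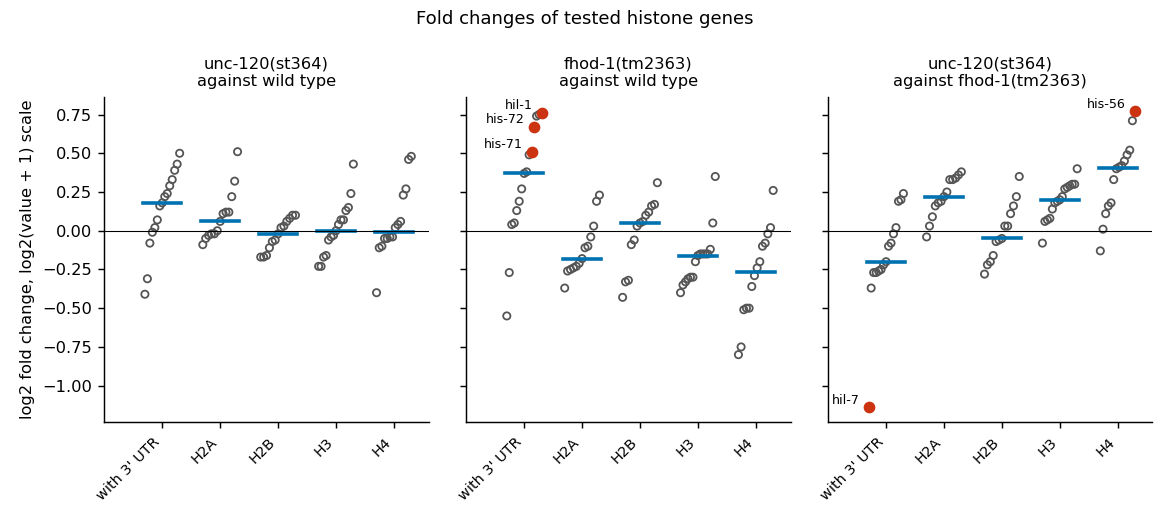
Log2 fold change, on the log2(value + 1) scale, of 70 of the 71 tested histone genes in the 3 comparisons, with the 15 genes that have an annotated 3' UTR in the first column and the single-exon core copies by class in the others (his-73 is not drawn). Filled points are genes called by limma at an adjusted p under 0.05 and bars are medians. In the comparison of the fhod-1 mutant with the wild type 2 of the 15 genes with a 3' UTR lie below 0.

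The H3.3 genes were higher in the fhod-1 mutant. H3.3 replaces H3 in nucleosomes outside replication, and his-71 (chrX:7981382-7982070) and his-72 (chrIII:12367474-12369050) are its main genes in the worm. The level of his-72 was 73.1, 98.0, 99.6 and 91.0 in the wild type, 104, 124, 129 and 129 in the unc-120 mutant and 127, 157, 153 and 140 in the fhod-1 mutant. Every library of both mutants was above every wild-type library, and the mutants overlapped each other at replicate 1 of the fhod-1 mutant. In the fhod-1 mutant his-72 rose by 0.67 ± 0.14 (SE) on the log2 scale, with a limma adjusted p of 0.0151. The call was lost when replicate 2 or replicate 3 of the fhod-1 mutant was left out, with adjusted p up to 0.0645. In the unc-120 mutant the difference was 0.43 ± 0.14, with a limma adjusted p of 0.276. The difference between the mutants was -0.25 (95% interval -0.55 to 0.06), with a limma adjusted p of 0.52. A small nucleolar RNA gene, Y49E10.36, lies within his-72 on the same strand, and its reads could add to this value.

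For his-71 the level was 101, 132, 130 and 128 in the wild type, 140, 143, 151 and 146 in the unc-120 mutant and 170, 189, 186 and 156 in the fhod-1 mutant. The 3 groups did not overlap, and replicate 1 was the lowest wild-type library for both H3.3 genes. his-71 rose in the fhod-1 mutant by 0.51 ± 0.13 on the log2 scale (limma adjusted p = 0.0349). With single libraries left out, the call was lost in 8 of 12 fits, namely without wild-type replicates 1, 2 or 3, replicate 3 of the unc-120 mutant or any replicate of the fhod-1 mutant, with adjusted p up to 0.126, and it was lost with trimmed mean scaling. In the unc-120 mutant the difference was 0.24 ± 0.13, with a limma adjusted p of 0.727. The sum of both H3.3 genes was 213 ± 26.5 (SD, n = 4) in the wild type, 266 ± 15.9 in the unc-120 mutant and 319 ± 26.4 in the fhod-1 mutant. The ratio of his-71 to his-72 was 1.36 ± 0.0436 in the wild type, 1.20 ± 0.0987 in the unc-120 mutant and 1.22 ± 0.0902 in the fhod-1 mutant, and the ranges of the mutants reached into that of the wild type.

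For htz-1 (chrIV:4445990-4446997), the gene for H2A.Z, a variant enriched at promoters, the level was 98.5, 152, 136 and 163 in the wild type, 128, 168, 163 and 173 in the unc-120 mutant and 169, 191, 203 and 199 in the fhod-1 mutant. All 4 fhod-1 mutant libraries were above the wild type, the lowest of them by a small margin, and the unc-120 mutant overlapped both. The difference from the wild type was 0.49 ± 0.17 in the fhod-1 mutant, short of the threshold with a limma adjusted p of 0.0979, and 0.22 ± 0.17 in the unc-120 mutant, with 0.92. htz-1 was called higher in the fhod-1 mutant when each library's slope on gene length entered as a covariate (adjusted p = 0.037). It was not called with the loess correction for length (adjusted p = 0.0873). It was called with the replicate number as a block (adjusted p = 0.0384), and with that block and the loess correction together (0.0132). The shares of all tested genes called in these settings were 23.9%, 17.5%, 7.38% and 26.7%.

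**Figure D3:**
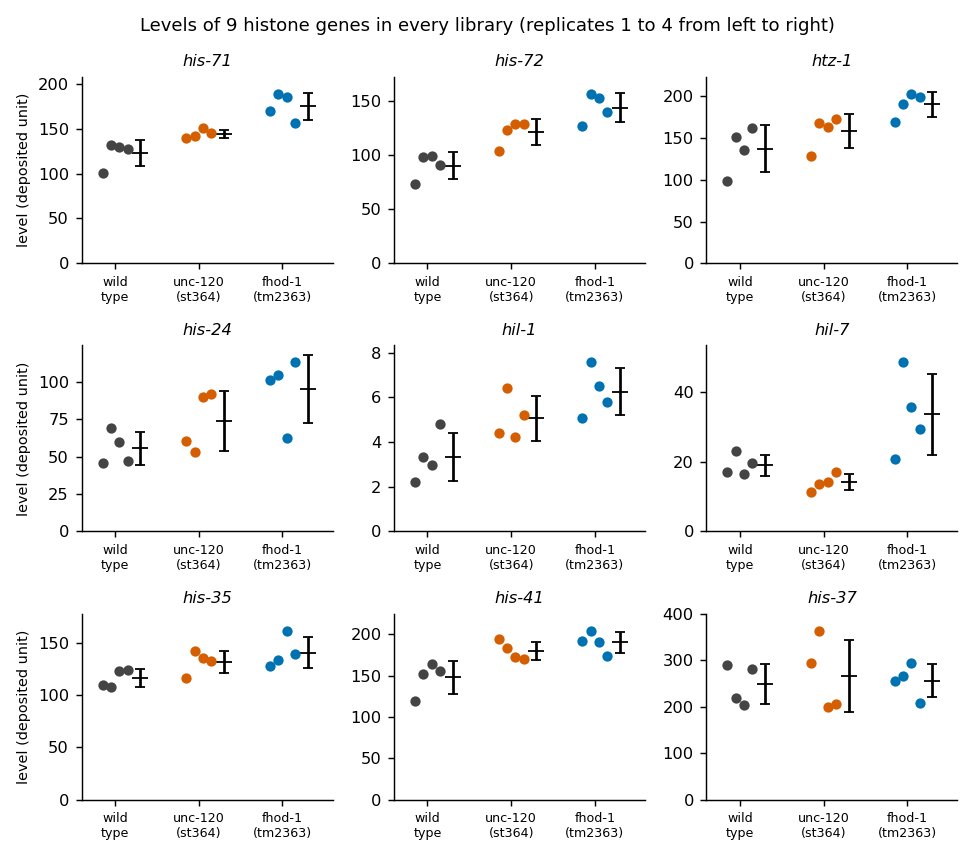
Level (deposited unit) of 9 histone genes in every library, with replicates 1 to 4 from left to right in each group and the mean ± SD (n = 4) beside them. For his-71 and his-72 every mutant library lies above every wild-type library, while the 3 groups of his-37 cover each other.

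The linker histones are proteins outside the core particle that compact chromatin, and his-24 and hil-1 to hil-8 encode those of the worm. Their summed level was 195 ± 38.6 in the wild type, 210 ± 53.4 in the unc-120 mutant and 257 ± 48.2 in the fhod-1 mutant, with all 3 ranges overlapping. his-24 was the highest of them in every group. Its level was 46.1, 69, 59.7 and 47.5 in the wild type, 60.4, 53.2, 89.9 and 92.3 in the unc-120 mutant and 101, 105, 62.5 and 113 in the fhod-1 mutant. Replicate 3 of the fhod-1 mutant lay within the wild-type range and the other 3 above it. The difference was 0.75 ± 0.23 in the fhod-1 mutant, with a limma adjusted p of 0.0679. Without that replicate it was 0.94, with an adjusted p of 0.033. That fit drops the fhod-1 mutant library that overlapped the wild type, so it cannot support a difference. With all libraries the adjusted p was 0.0412 under upper-quartile and 0.0459 under trimmed mean scaling. It was 0.00284 with the length slope as a covariate and 0.0598, not called, with the loess correction for length. The shares of all tested genes called in these fits were 2.71%, 6.42%, 5.67%, 23.9% and 17.5%. The share of his-24 in the linker sum was 26% to 30.7% in the wild type, 31.5% to 37.4% in the unc-120 mutant and 32.7% to 40.2% in the fhod-1 mutant, and both mutant ranges lay above that of the wild type.

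hil-1 (chrV:14949777-14952796) was lower in level but was called. Its level was 2.23, 3.34, 2.96 and 4.8 in the wild type, 4.42, 6.43, 4.23 and 5.19 in the unc-120 mutant and 5.09, 7.57, 6.52 and 5.81 in the fhod-1 mutant. Wild-type replicate 4 reached into the range of the unc-120 mutant and stayed below that of the fhod-1 mutant. hil-1 rose in the fhod-1 mutant by 0.76 ± 0.18 on the log2 scale, with a limma adjusted p of 0.0272. The call was lost without wild-type replicates 1, 2 or 3 or without replicates 2, 3 or 4 of the fhod-1 mutant, with adjusted p up to 0.109, and with trimmed mean and quantile scaling. In the unc-120 mutant the difference was 0.50 ± 0.18, with a limma adjusted p of 0.348.

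hil-7 (chrIV:6646034-6646936) separated the mutants from each other. Its level was 17.1, 23.1, 16.4 and 19.7 in the wild type, 11.5, 13.7, 14.3 and 17.2 in the unc-120 mutant and 20.9, 48.7, 35.7 and 29.5 in the fhod-1 mutant. The wild type overlapped both mutants, which did not overlap each other. hil-7 was lower in the unc-120 mutant than in the fhod-1 mutant by a log2 difference of -1.14 ± 0.22, with a limma adjusted p of 0.00976, and it was called under every alternative setting tried, with adjusted p from 0.00224 to 0.0443. Against the wild type the difference was -0.41 ± 0.22 in the unc-120 mutant (limma adjusted p = 0.727) and 0.74 ± 0.22 in the fhod-1 mutant (limma adjusted p = 0.0641). The latter was called with the length slope as a covariate (adjusted p = 0.0313). It was not called with the loess correction for length (adjusted p = 0.0584). It was called with the replicate number as a block (adjusted p = 0.0347), and without replicate 1 of the fhod-1 mutant (log2 difference 0.94, adjusted p = 0.0203). The shares of all tested genes called in these settings were 23.9%, 17.5%, 7.38% and 4.14%. Replicate 1 was the fhod-1 mutant library within the wild-type range, so leaving it out cannot support a difference. No other left-out library gave that call.

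The other linker genes above the filter, hil-2 to hil-5, were not called in any comparison, and their groups overlapped. hil-2 stood at 44.3, 48.5, 57.6 and 31.5 in the wild type, 44.2, 29.1, 59 and 50.2 in the unc-120 mutant and 53.7, 53.2, 39.6 and 58.7 in the fhod-1 mutant. hil-3 stood at 28.5, 29.5, 33.8 and 20.03, at 34.6, 18.2, 40.6 and 35.2, and at 37.9, 41.2, 22.3 and 48.5 in the same order of groups. In both, replicate 2 of the unc-120 mutant and replicate 3 of the fhod-1 mutant were the lowest libraries of their groups. hil-5 stood at 18.5, 31.8, 36.7 and 18.4 in the wild type, 23.8, 13.5, 31.6 and 31 in the unc-120 mutant and 20.03, 20.1, 15.9 and 28.8 in the fhod-1 mutant. hil-4 stood at 12.9, 21.2, 22.4 and 12.7, at 13.2, 8.001, 16.4 and 17.9, and at 12.5, 10.5, 8.43 and 13.7. The same replicates were the lowest again, and wild-type replicates 1 and 4 were low beside 2 and 3. The log2 difference of the fhod-1 mutant from the wild type was 0.19 ± 0.22 for hil-2, 0.38 ± 0.26 for hil-3, -0.27 ± 0.28 for hil-5 and -0.55 ± 0.25 for hil-4. hil-4 was called lower with the length slope as a covariate (adjusted p = 0.00535) and not with the loess correction for length (adjusted p = 0.10). The shares of all tested genes called in these settings were 23.9% and 17.5%. hil-6 and hil-8 were near 0 in every library, with at most 0.188 and 0.0546.

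The spliced core copies his-35, his-41 and his-37 were not called in any comparison. The level of his-41 (H2B) was 119, 152, 164 and 156 in the wild type, 194, 184, 173 and 170 in the unc-120 mutant and 192, 205, 191 and 174 in the fhod-1 mutant. Both mutants lay above the wild type in every library. The difference was 0.29 ± 0.13 in the unc-120 mutant and 0.37 ± 0.13 in the fhod-1 mutant, with limma adjusted p of 0.587 and 0.118. The latter was called with the length slope as a covariate (adjusted p = 0.0282), a setting in which 23.9% of all tested genes were called. With the loess correction for length it was not called (adjusted p = 0.116), where 17.5% of all tested genes were. A gene of the same strand, C50F4.6, overlaps his-41, and its reads could be part of this value.

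his-35 (H2A) stood at 110, 108, 123 and 124 in the wild type, 116, 142, 135 and 132 in the unc-120 mutant and 128, 134, 161 and 139 in the fhod-1 mutant, so that the fhod-1 mutant did not overlap the wild type and the unc-120 mutant did. Its difference was 0.27 ± 0.13 in the fhod-1 mutant, with a limma adjusted p of 0.227. his-37 (H4) stood at 290, 220, 203 and 282 in the wild type, 295, 364, 200 and 206 in the unc-120 mutant and 256, 267, 293 and 209 in the fhod-1 mutant. The spread within each group exceeded the differences between them, which on the log2 scale were 0.07 (95% interval -0.36 to 0.50) for the unc-120 mutant and 0.05 (-0.38 to 0.48) for the fhod-1 mutant. The gene nstp-10 overlaps his-37 on the other strand, and whether the counting used strand is not given in the sources used here.

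Among the H3-like genes, his-74 was the only one above 10 in level. It stood at 13, 24.4, 27.1 and 23.6 in the wild type, 19.4, 21.6, 22.1 and 23.5 in the unc-120 mutant and 26.1, 18.1, 22.9 and 21.3 in the fhod-1 mutant. The means were 22.03, 21.6 and 22.1 in that order, and the groups overlapped. his-73 stood at 0.979, 1.1, 1.31 and 1.16 in the wild type, 2.38, 2.81, 1.27 and 1.13 in the unc-120 mutant and 2.25, 1.04, 1.36 and 1.5 in the fhod-1 mutant. Replicates 1 and 2 of the unc-120 mutant were its highest libraries, with replicate 1 of the fhod-1 mutant. his-69 did not exceed 0.456 in any library, and his-70 was listed at 0 in 9 of the 12 libraries.

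The 62 core copies that were not spliced throughout had a summed level of 240 ± 39.9 in the wild type, 251 ± 46.1 in the unc-120 mutant and 204 ± 25.4 in the fhod-1 mutant. The values were 275, 203, 275 and 209 in the wild type, 301, 276, 230 and 198 in the unc-120 mutant and 220, 188, 230 and 177 in the fhod-1 mutant. All 3 groups overlapped, and no test was made of a sum over chosen genes. The sum of the spliced copies his-35, his-37 and his-41 was 513 ± 36.8, 578 ± 87.4 and 587 ± 52.5 in the same order, and that of the variant and linker genes was 569 ± 81.6, 658 ± 74.2 and 790 ± 46.6. For the last of these every fhod-1 mutant library, from 746 to 842, was above every library of the other 2 groups, from 456 to 723. As a share of the summed level of all histone genes, the unspliced copies made up 15.4% to 22% in the wild type. The share was 13.9% to 20.1% in the unc-120 mutant and 11.5% to 14.3% in the fhod-1 mutant. In poly(A) libraries it is not their share of the histone mRNA of the worm. In bulk RNA of whole larvae, fewer cells of a type and less RNA per cell cannot be told apart.

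**Figure D4:**
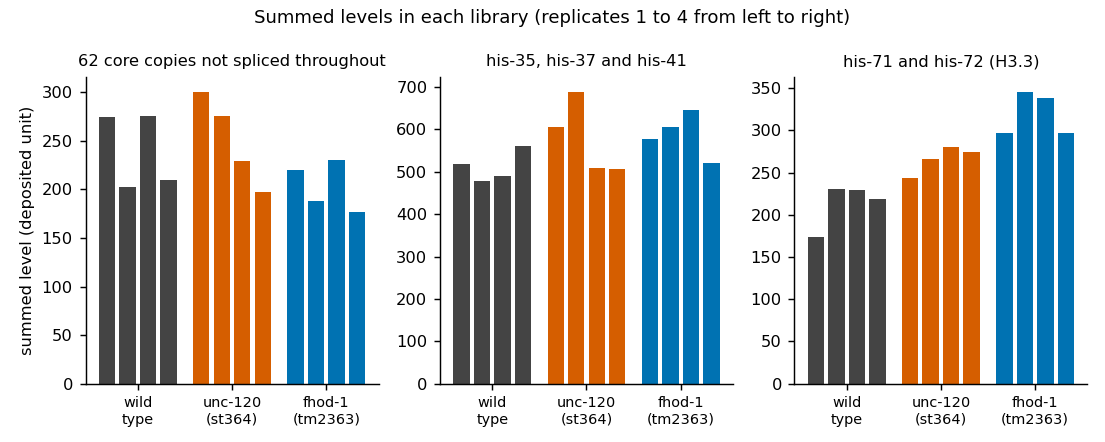
Summed level (deposited unit) in each of the 12 libraries for the 62 core copies that are not spliced throughout, for his-35, his-37 and his-41, and for the H3.3 genes his-71 and his-72. The unspliced copies overlap between all groups, and the H3.3 sum is higher in every mutant library (244 to 346) than in every wild-type library (174 to 230).

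Of these 62 copies, 56 were tested. In the fhod-1 mutant against the wild type 40 of the 56 had a log2 difference below 0, where 40.2% of all tested genes did, and their median was -0.15 against 0.07 for all tested genes. None of the 56 was called in that comparison, and 6 had an unadjusted limma p under 0.05, where 22.5% of all tested genes did. The copies share reads and lie in clusters, so they are not independent of each other. By class, the differences were below 0 in 10 of 14 H2A copies (median -0.15), in 13 of 15 H3 copies (median -0.16) and in 12 of 14 H4 copies (median -0.26). In H2B they were below 0 in 5 of 13, with a median of 0.05. That median became -0.01 with trimmed mean scaling, -0.08 with quantile normalization and -0.02 with the loess correction for length. Under these settings the share of all calls that were higher, 73.8% in the main fit, was 59.8%, 50.7% and 48.9%. The medians of the other classes under them are not given here. In the unc-120 mutant against the wild type 26 of the 56 were below 0, with a median of 0.01, where 46.2% of all tested genes were below 0.

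Germline markers, the genes of the tissue that divides most at this stage, were given beside these values. Their summed level was 170 to 291 in the wild type, 123 to 257 in the unc-120 mutant and 137 to 219 in the fhod-1 mutant. In any comparison 0 of the 23 markers was called, against 1.2% to 5.23% of all tested genes, and none had a mean under 1. Their median log2 difference from the wild type was -0.13 in the unc-120 mutant and -0.26 in the fhod-1 mutant. Their part in the levels of the core copies was not tested.

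The largest cluster of core copies, 13 genes within 10.9 kb at chrII:13817759-13828697, had a summed level of 75.7 ± 6.79 in the wild type, 72.5 ± 17.6 in the unc-120 mutant and 54.8 ± 7.83 in the fhod-1 mutant. The fhod-1 mutant libraries, from 44.7 to 63.5, were all below the wild-type ones, from 69.6 to 85.3, and those of the unc-120 mutant, from 51 to 87.4, covered most of both ranges. All 13 genes had a log2 difference below 0 in the fhod-1 mutant, with a median of -0.33, where 40.2% of all tested genes were below 0. None of the 13 was called in that comparison. As neighbouring copies that share reads, they are not independent of each other. The cluster holds 4 of the 6 copies in which the fhod-1 mutant lay wholly below the wild type, as it did in 4.7% of all tested genes. Of these, his-10 (H4) stood at 8.87, 9.14, 9.10 and 8.63 in the wild type, 8.34, 10.4, 4.44 and 4.56 in the unc-120 mutant and 4.94, 4.96, 5.91 and 3.36 in the fhod-1 mutant. Libraries 3 and 4 of the unc-120 mutant were as low as the fhod-1 mutant, and libraries 1 and 2 were near the wild type. The difference of his-10 in the fhod-1 mutant was -0.80 ± 0.22, with a limma adjusted p of 0.0517. With the loess correction for length it was -0.86, with an adjusted p of 0.00187, a setting in which 17.5% of all tested genes were called. his-10 was chosen after its values were seen.

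**Figure D5:**
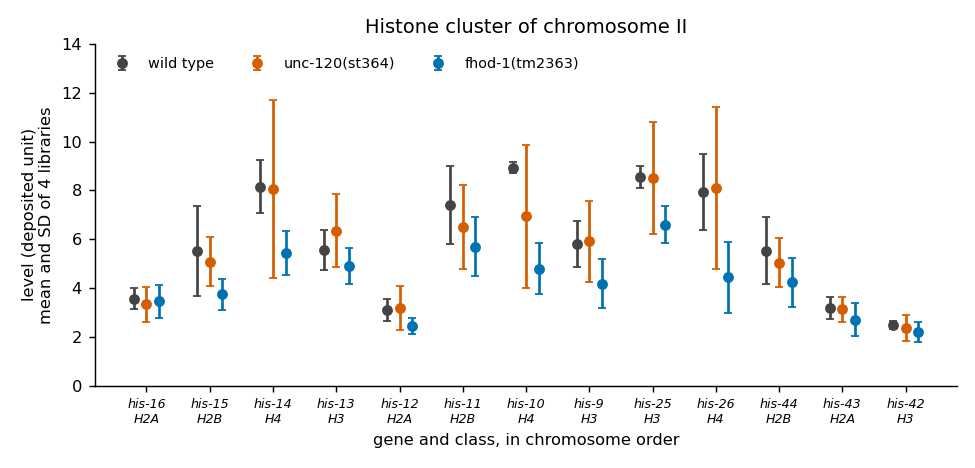
Mean level ± SD (deposited unit, n = 4 libraries) of the 13 histone genes of the chromosome II cluster in chromosome order, with the class of each gene under its symbol. The fhod-1 mutant mean is below the wild-type mean for all 13 genes, and the SD bars of the unc-120 mutant are wide for the H4 genes his-14, his-10 and his-26.

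Other high copies of H4 were his-14 and his-60, and of H3 his-25 and his-13. his-14 (H4) stood at 7.45, 7.96, 7.44 and 9.75 in the wild type, 9.35, 12.5, 6.24 and 4.16 in the unc-120 mutant and 5.37, 5.88, 6.32 and 4.23 in the fhod-1 mutant, and his-60 (H4, chromosome IV) at 7.66, 6.05, 6.95 and 7.28, at 9.88, 10.8, 7.72 and 5.84, and at 7.43, 6.24, 9.40 and 3.87. In both, the unc-120 mutant was highest in replicate 2, as for his-37, and lowest in replicate 4. The H3 copies his-25 and his-13 of chromosome II stood at 8.77, 7.88, 8.88 and 8.62 and at 4.98, 5.39, 6.76 and 5.11 in the wild type, and at 7.10, 6.80, 6.98 and 5.48 and at 4.67, 5.92, 4.86 and 4.19 in the fhod-1 mutant. In the unc-120 mutant they were 10.9, 9.21, 8.48 and 5.41, and 7.58, 7.62, 5.53 and 4.68. The log2 difference in the fhod-1 mutant was -0.51 ± 0.24 for his-14, -0.10 ± 0.22 for his-60, -0.33 ± 0.17 for his-25 and -0.15 ± 0.16 for his-13, none of them called by limma. With the loess correction for length his-14 and his-25 were called lower, with adjusted p of 0.0221 and 0.0458. In that setting 17.5% of all tested genes were called.

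The highest single-exon H2B copies, his-11 and his-44, also lie in the chromosome II cluster. his-11 stood at 6.97, 7.54, 9.45 and 5.62 in the wild type, 8.89, 4.87, 6.47 and 5.79 in the unc-120 mutant and 7.25, 4.89, 6.03 and 4.6 in the fhod-1 mutant. his-44 stood at 4.58, 5.37, 7.53 and 4.67, at 6.04, 4.25, 5.76 and 4.13, and at 3.74, 3.08, 5.34 and 4.74. Unlike the H4 copies, they were low in replicate 2 of the unc-120 mutant and high in wild-type replicate 3. Over all 16 single-exon H2B copies the sum in replicate 2 of the unc-120 mutant was 32.3, the lowest of the 12 libraries, while the sum of the 15 unspliced H4 copies there was 82.5, the highest. The H4 sum otherwise ran from 29.6 in replicate 4 of the fhod-1 mutant to 72.3.

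The highest H2A copies, his-3 and his-7 of chromosome V, stood at 18.8, 11.5, 17.7 and 11.9 and at 15.0, 9.23, 12.8 and 10.2 in the wild type. In the unc-120 mutant they were 19.4, 18.8, 14.9 and 11.9, and 17.6, 16.3, 12.3 and 9.96. In the fhod-1 mutant they were 13.8, 11.4, 15.2 and 9.30, and 13.5, 9.01, 12.1 and 8.94. Wild-type replicates 1 and 3 were the high ones for both, and the groups overlapped.

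The cluster at chrIV:8331044-8336340 held 2 H2A, 2 H2B, 1 H3 and 1 H4 copy at unequal levels. The H3 copy his-32 stood at 5.68, 6.77, 7.24 and 8.96 in the wild type, 8.80, 11.8, 10.1 and 9.01 in the unc-120 mutant and 9.09, 7.72, 10.6 and 10.004 in the fhod-1 mutant. It was the highest of the 15 core H3 copies, with a mean of 8.81, and its neighbour his-31 (H4) had a mean of 3.07. The H2A and H2B copies beside them, his-29, his-30, his-33 and his-34, did not exceed 0.511 in any library. The log2 difference of his-32 was 0.43 ± 0.15 in the unc-120 mutant and 0.35 ± 0.15 in the fhod-1 mutant, with limma adjusted p of 0.347 and 0.199.

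his-56 (H4, chrIV:11338522-11338833) was the core copy called between the mutants. Its level was 2.84, 1.83, 2.55 and 3.11 in the wild type, 4.86, 5.39, 2.84 and 3.20 in the unc-120 mutant and 2.6, 2.03, 1.72 and 1.38 in the fhod-1 mutant. Replicates 1 and 2 of the unc-120 mutant were high, and all 4 were above the fhod-1 mutant. his-56 was higher in the unc-120 mutant than in the fhod-1 mutant by 0.77 ± 0.19 on the log2 scale, with a limma adjusted p of 0.0475. It was called in 8 of 24 alternative settings, with adjusted p from 0.00152 to 0.147, and was lost without wild-type replicates 1, 3 or 4, replicates 1 or 2 of the unc-120 mutant or replicates 2, 3 or 4 of the fhod-1 mutant. Of the 56 tested unspliced copies 10 were below 0 in this comparison, where 60.3% of all tested genes were, and their median was 0.19.

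Genes that act on histones and their mRNAs were listed with earlier results of these data known. Of all tested genes, 1.2% (unc-120 mutant) and 5.23% (fhod-1 mutant) were called against the wild type, and 1.97% between the mutants. Of 16 listed genes of histone mRNA 3' end formation found in the table, 0 was called in any comparison. They include cdl-1, the stem-loop binding protein that holds the 3' end of replication-dependent histone mRNAs, which stood at 22.8 ± 3.19 (SD, n = 4) in the wild type, 22.5 ± 6.23 in the unc-120 mutant and 26.8 ± 3.72 in the fhod-1 mutant. Of 30 S phase genes, 0 was called, and their summed level was 414 to 497 in the wild type, 379 to 477 in the unc-120 mutant and 394 to 498 in the fhod-1 mutant. Of 20 tested histone chaperones and deposition factors, 1 was called, asfl-1, a relative of the H3-H4 chaperone Asf1. It fell in the fhod-1 mutant from 2.11 ± 0.457 to 1.1 ± 0.177, by 0.56 on the log2 scale (limma adjusted p = 0.0257). In the unc-120 mutant it stood at 1.61 ± 0.374. In the comparison of the fhod-1 mutant with the wild type 5.23% of all tested genes were called, 3.86% higher and 1.37% lower.

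Markers of other tissues were read in the same libraries. The 7 body-wall muscle markers summed to 1364 to 1930 in the wild type, 815 to 1372 in the unc-120 mutant and 1381 to 1955 in the fhod-1 mutant, and 0 was called. The 7 neuronal markers summed to 405 to 498 in the wild type, 473 to 583 in the unc-120 mutant and 580 to 715 in the fhod-1 mutant. For this sum the fhod-1 mutant libraries were all above the wild type, as they were singly for 10.8% of all tested genes. Of the 7 neuronal markers 1 was called, sbt-1, a chaperone of neuropeptide processing. It rose in the fhod-1 mutant from 193 ± 34.1 to 301 ± 34.2 (log2 difference 0.65, limma adjusted p = 0.0216). In that comparison 5.23% of all tested genes were called, 3.86% higher. None of the markers of the intestine (6), the hypodermis (6) or the pharynx (4) was called, and no gene of these marker lists had a mean under 1. The part of tissue composition in the histone values was not tested.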

How the data were processed

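The deposited table holds 1 column per library. Its name calls the values normalized counts, and they behave as TPM multiplied by a constant in all libraries: the deposited values sum to 638200 per library and are scaled by gene length. Bowtie2 2.2.5, Partek and the build WBcel235 are named, per the submitters' processing notes. The treatment of reads that match several genes and the use of strand are not given in the sources used here. Libraries were made with the TruSeq Stranded mRNA kit, per the labels' protocols.

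Positions are those of the deposited table, 1-based. Exons, UTRs and exonic lengths came from Ensembl (WBcel235, release 115), which holds 99.46% of the table's identifiers. The 12831 genes that reached a value of 1 in 4 or more libraries were tested with limma 3.58.1 in R 4.3.3 (eBayes with trend) on log2(value + 1), with Benjamini-Hochberg adjustment over all of them. The histone genes and the other lists were chosen with earlier results of these data known. Histone classes were assigned by hand from the symbols and no sequence was used. Genes were named by a rule: the variants, his-24, his-35, the H3-like genes, every histone gene called, and the 3 highest core copies of each class. his-10 and the genes of the lowest levels stand outside it. The alternatives were other pseudocounts (0.5 and 0.1), a filter at 10 or none, upper-quartile, trimmed mean and quantile scaling, 2 corrections for gene length, a replicate block, the 2 groups alone, limma without a trend, and leaving out each library. The code was tested on simulated data.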

Additional observations from a re-analysis of the deposited data

Results flagged for a closer look

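Wild-type replicate 1 had a level of 101 for his-71, apart from 128 to 132 in the other 3 wild-type libraries. his-70 had a level of 0.0512 in wild-type replicate 4 and was listed at 0 in the other 3. With the others at 0, any value above 0 meets the rule, so the his-70 flag says nothing about that library. These were 2 of 81 groups of 4 libraries checked for a lone library. Chance gives about 1 in 20 for normally spread values, which those of his-70 are not. The effects of the mutants differed for hil-7, with a log2 difference of -1.14 between the unc-120 mutant and the fhod-1 mutant, and for his-56, with 0.77. These were tests of the difference itself, in a fit whose estimate of the spread also uses the wild-type libraries. The his-56 call was lost without wild-type replicates 1, 3 or 4 and with the 2 mutants alone.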

How the results depend on the processing

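The count of histone genes called in the unc-120 mutant against the wild type was 0 under every alternative except the replicate block with the loess correction for length, where it was 3, with 5.45% of all tested genes called. For the fhod-1 mutant against the wild type the count of 3 of 71 became 5 with the 2 groups alone, 11 with the loess correction and 13 with a slope on length as a covariate, 6 of them lower. The shares of all tested genes called under these settings were 6.04%, 17.5% and 23.9%, against 5.23%, and the counts grew beside the calls over the whole table. The count ranged from 0 to 5 with 1 library left out. It was 0 without replicate 2 of the fhod-1 mutant, 1 without its replicates 3 or 4 or without wild-type replicates 1, 2 or 3, and 5 without replicate 2 of the unc-120 mutant. For the unc-120 mutant against the fhod-1 mutant the count of 2 became 1 with log2(value + 0.1), the filter at 10, every gene above 0, the 3 scalings, the 2 groups alone and limma without a trend, 4 with the loess correction (5.12% of all tested genes called, against 1.97%), and 1 to 2 with 1 library left out. hil-7 was the gene called in all of these. Same-numbered libraries also share a letter of their titles, K to N, across the strains, and the labels do not say what it marks. Their deviations from the group means correlated above 0.1 in 5 of 12 pairs (r from -0.651 to 0.806), in all 3 pairs of replicate 1 (0.585, 0.467 and 0.61) but in none of replicate 2, and not every library correlated best with its own number, so they were not treated as paired. With the replicate block the counts were 7 for the fhod-1 mutant against the wild type and 1 between the mutants, where 7.38% and 2.42% of all tested genes were called, and 15 and 10 with the block and the loess correction together, where 26.7% and 10.3% were. In the comparison of the fhod-1 mutant with the wild type, the share of all calls that were higher was 73.8%, and 59.8% with trimmed mean scaling, 50.7% with quantile normalization and 48.9% with the loess correction. Without the genes overlapped on the same strand, his-41 and his-72, the sum of the spliced core copies was 365 in the wild type, 397 in the unc-120 mutant and 397 in the fhod-1 mutant, and that of the variant and linker genes 478, 536 and 647. Of the values of named genes under alternatives, 39 of 1848 had another sign, none of them called, none above 0.2 in size. The cause of these changes was not tested.

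Read depth is unknown, low genes are the least precise, and shared reads between copies limit every single core copy.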
